A study of Rattus norvegicus with 11 samples.

Results

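The comparison described here sets REF52 cells given the E2F1 virus and serum against REF52 cells given the control virus and serum. It rests on 4 of the 11 arrays of the series, 2 for each virus, chosen by their titles alone. REF52 is an established rat embryo fibroblast line. Every culture had first been expanded with 10% serum and then lowered to 0.25% serum for 48 hours before it was infected with a control adenovirus (labelled CMV) or with an adenovirus expressing E2F1. In the 2 groups compared, serum was then given back without LY294002, an inhibitor of phosphoinositide 3-kinase (PI3K). The other groups, used here only to read the same genes on other arrays, received serum with LY294002 (2 arrays for each virus) or stayed in deprivation medium (2 arrays with E2F1 and 1 with the control virus). The labels give neither the time from infection to harvest nor the virus dose. Nor do they say that the arrays sharing a virus and medium are independent cultures, so a p-value here weighs an effect against array-to-array spread that may be technical only.

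E2F1 is a transcription factor that binds DNA as a dimer with a DP protein. In resting cells the retinoblastoma family of pocket proteins holds E2F factors in check, and cyclin D and cyclin E kinases release them when serum drives cells from G1 into S phase. Its known targets include cyclin E, the helicase and polymerase genes of DNA replication, nucleotide synthesis enzymes and repair genes, and at high activity it is also known to activate genes of cell death. The series title sets the question as the balance of proliferation and cell death. In this medium both groups had serum, so the comparison asks what E2F1 adds to cells already given a growth stimulus.

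Values are array signals on a linear scale, and differences are of log2(signal + 16), in which the added 16 damps the noise of dim probe sets and understates the change of dim genes. No fold is given where any of the 4 arrays read under 32. Of the fibroblast markers, Col1a1, Col1a2, Vim, Fn1 and S100a4 read above 12000 on all 4 arrays, whereas Pdgfra, Thy1, Dcn and Lum lay under the array median on all 4. Median signals of the 4 arrays ran from 187 to 208, the pair of a group correlated at 0.980 (control virus) and 0.977 (E2F1) over probe sets, and the 3' minus 5' difference of control transcripts, a sign of RNA quality, lay between 0.12 and 0.19. Summed signals of the 5 measured endothelial markers were 219 and 200 with the control virus and 279 and 309 with E2F1. All 5 lay under the array median on all 4 arrays, with a highest signal of 149. Of the 5, 4 read higher with E2F1 without overlap, against 31.5% of all probe sets, and their list median was 0.73. Leukocyte markers summed to 463 and 574 against 584 and 647, and epithelial markers to 568 and 527 against 402 and 443. The part of other cell types in the results was not tested. The introduced gene itself is not analysed here, since E2f1 is not the single symbol of any probe set. The share of infected cells is not given, and in RNA of whole cultures a change in fewer cells cannot be told apart from a smaller change in every cell.

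With E2F1, 46 probe sets rose and 10 fell in serum (limma, adjusted p under 0.05, all 11 arrays in the fit). These are 0.29% and 0.063% of the 15866 probe sets tested. The higher calls had a median log2 difference of 1.78 and the lower calls of -1.57. The 50 calls with a single symbol name 49 genes, 41 higher and 8 lower. The adjusted p of 49 of the 56 calls lay above 0.04. The count ranged from 0 to 71 when each array in turn was left out. It was 0 without the first E2F1 serum array, 1 without the second, 1 without the first control virus serum array and 71 without the second, of which 22 were among the 56. It was 3 to 5 without any one of the arrays with LY294002 or of the deprived E2F1 arrays, and 56 without the deprived control virus array. A fit of the 4 serum arrays alone called 0, with 3187 at an unadjusted p under 0.05, and an exact permutation test of 2 arrays against 2 cannot go below a two-sided p of 0.333. A second description with no test is therefore given beside the calls: a probe set is termed separated where both E2F1 arrays lay on one side of both control virus arrays with a difference of means of at least 1 on the log2 scale. Separated probe sets numbered 561 higher (3.54%) and 289 lower (1.82%).

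**Figure D1:**
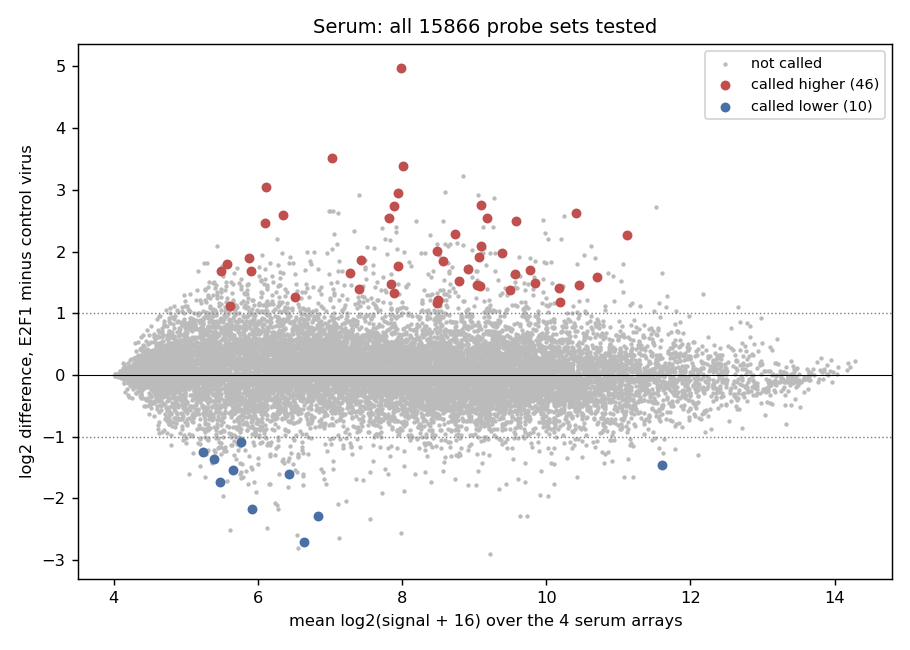
Each point is 1 of the 15866 probe sets tested, with its mean log2(signal + 16) over the 4 serum arrays on the x axis and the log2 difference, E2F1 minus control virus, on the y axis. The 46 higher calls (red) reach 4.97, and 9 of the 10 lower calls (blue) lie among dim probe sets.

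The cyclin E genes were among the largest increases. Ccne2, a cyclin that activates Cdk2 at entry into S phase, read 2.58 and 95.0 on the control virus arrays and 1370 and 1440 on the E2F1 arrays. The control values differ widely from each other, yet both lie far under the E2F1 values (log2 difference 4.97 ± 0.71, SE, limma adjusted p = 0.0457). Ccne1, its close relative, read 280 and 332 against 2090 and 1550, a 5.65-fold rise (2.50 ± 0.29, adjusted p = 0.0402). Usp1, a deubiquitinase of the Fanconi pathway, went from 191 and 324 to 1160 and 1080 (2.09 ± 0.26), and a second probe set gave 2.14. In all, 3 of 18 measured G1/S and E2F network genes were called higher, against 0.29% of all probe sets, and 6 were separated higher, against 3.54%. The median difference was 0.69, against 0.06 over all probe sets. Mybl2, a transcription factor of the same network, read 133 and 236 against 837 and 811 and missed the threshold (2.12 ± 0.34, adjusted p = 0.0708). E2f8, a repressive E2F family member, read 24.6 and 85.8 against 305 and 201 (adjusted p = 0.129). None of the 3 D cyclins, which act upstream of E2F, was separated. Ccnd1 read 3920 and 5000 against 4480 and 5170 and Ccnd2 read 219 and 187 against 223 and 203, and in both the groups overlapped. Ccnd3 lay lower without overlap, at 5010 and 5200 against 3140 and 4070 (-0.51 ± 0.17, adjusted p = 0.22).

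Repair genes gave 5 higher calls among 20 measured, and 7 were separated higher, against 0.29% and 3.54% of all probe sets. Brca2, a gene needed for recombination repair, read 19.2 and 25.9 against 444 and 408 (3.52 ± 0.22, adjusted p = 0.00487). Ube2t, the ubiquitin-conjugating enzyme of the Fanconi pathway, read 61.9 and 83.7 against 794 and 557, a 7.73-fold rise (adjusted p = 0.00487). These 2 genes and Dpf1, a zinc finger protein of chromatin remodelling complexes (15.1 and 19.7 against 184 and 184), were the 3 calls with an adjusted p under 0.01. Bard1, the partner of Brca1, read 9.26 and 6.70 against 242 and 137 (3.05 ± 0.44, adjusted p = 0.0457). Brca1 itself read 39.4 and 39.3 against 226 and 149, which did not pass (1.85 ± 0.35, adjusted p = 0.0809). Mdc1, a scaffold at DNA breaks, rose 4.03-fold, and Rad51c, a recombination gene, rose 3.40-fold. The rest of the list was not uniform: the end-joining factor Xrcc5 stood at 0.07 ± 0.31, and Nbn, which works with Mre11 at DNA breaks, at -0.47 ± 0.21.

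**Figure D2:**
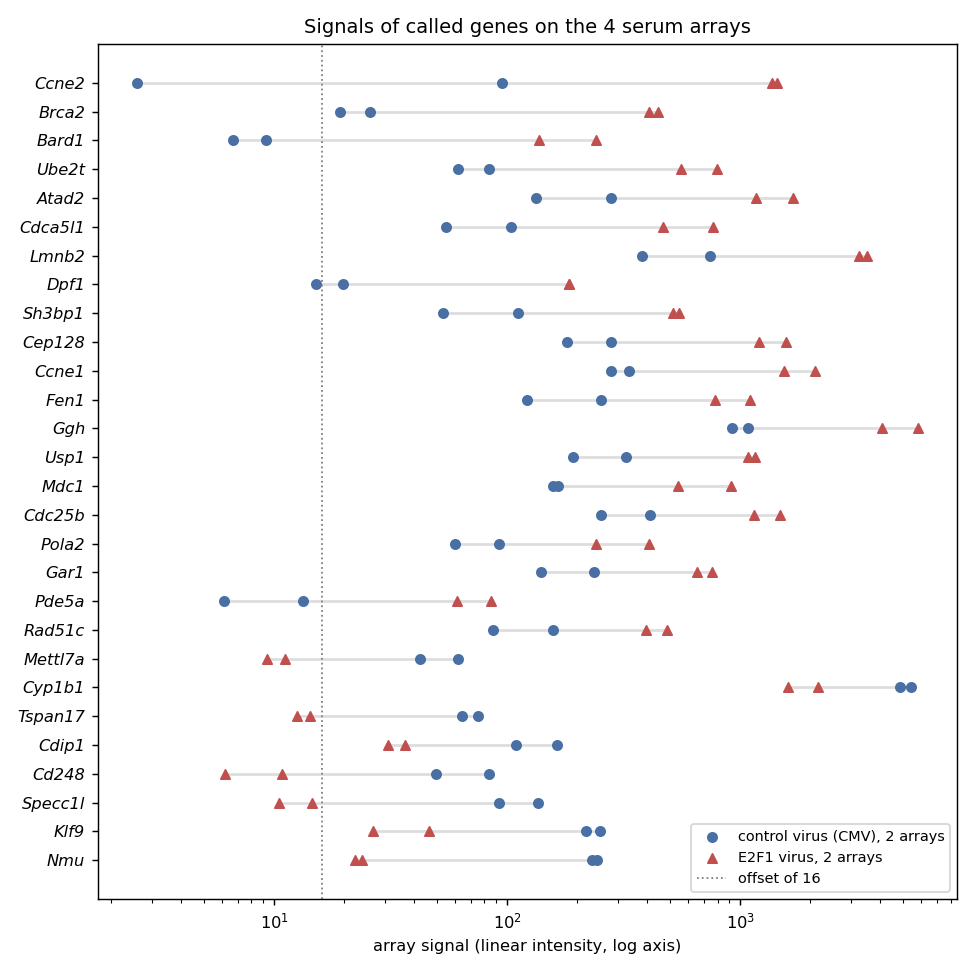
Signals of 28 called genes on the 4 serum arrays (x axis, linear intensity on a log scale), with circles for the 2 control virus arrays, triangles for the 2 E2F1 arrays and a dotted line at the offset of 16. In each gene the groups do not overlap, and Cyp1b1 is the bright exception among the genes that fell.

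Among 23 genes of DNA polymerases, the sliding clamp and Okazaki fragment processing, 4 were called higher and 12 were separated higher. The shares over all probe sets were 0.29% and 3.54%, and the median of the list was 1.00. Fen1, the flap nuclease, read 122 and 254 against 1100 and 779 (2.29 ± 0.31, adjusted p = 0.0436). Pola2 and Pola1, subunits of the polymerase alpha and primase complex, rose 3.63-fold and 2.51-fold, and Rnaseh2a, which removes RNA from DNA, rose 2.60-fold. Pcna, the clamp, read 1440 and 2120 against 6260 and 4900 and did not pass (1.66 ± 0.32, adjusted p = 0.0813). Polymerase delta was uneven, with Pold3 at 1.12 ± 0.23, Pold1 at 0.36 ± 0.28 and Pold4 at -0.13 ± 0.29.

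Of 13 genes that license and unwind origins, limma called 0, with 10 at an unadjusted p under 0.05 (15.5% of all probe sets). The number separated higher was 9, against 3.54% of all probe sets, with a median of 1.41. The Mcm helicase subunits showed it most plainly. Mcm4 read 202 and 367 against 982 and 855 (1.69 ± 0.26, adjusted p = 0.0529), and Mcm5 read 145 and 299 against 816 and 669 (1.75 ± 0.30, adjusted p = 0.0733). Mcm6 read 188 and 554 against 1470 and 1140 (1.94 ± 0.43, adjusted p = 0.104). Of the origin recognition complex, Orc6 was separated (1.47 ± 0.37), whereas Orc2, Orc4 and Orc5 lay between -0.13 and 0.27.

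Promoters of these genes were searched for the E2F site in 4 spellings, TTTCCCGC, TTTGCCGC, TTTGGCGC and TTTCGCGC, on either strand, from 250 bases before to 50 after the start in the RefSeq table of assembly GRCr8. The spellings can overlap on opposite strands. A match is a description of letters, not of binding. The site was found in 8 of 10 licensing genes with a promoter in the table (80.0%), in 7 of 22 polymerase and clamp genes (31.8%), in 3 of 6 checkpoint genes and in 2 of 32 mitosis genes (6.25%). It was found in 306 of 8610 measured genes (3.55%) and in 618 of 27457 promoters of the table (2.25%). Of genes called higher it was in 3 of 34 (Bard1, Pola1 and Usp1), of genes called lower in 0 of 7, of genes separated higher in 32 of 329 (9.73%) and of genes separated lower in 5 of 151 (3.31%). The stretches below hold the site in capitals and run 5′ to 3′ along the gene. The 3 called genes come first, then some of the licensing, checkpoint and mitosis genes that were separated, and so differ by at least 1. Mcm7 (1.49), Gins1 (1.01) and Stmn1 (1.10) were also separated with a site before the start and are not shown.
Bard1, chr9:80143917-80143996, minus strand: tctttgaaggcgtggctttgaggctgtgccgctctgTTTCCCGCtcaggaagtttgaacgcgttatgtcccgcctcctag
Pola1, chrX:62342484-62342563, minus strand: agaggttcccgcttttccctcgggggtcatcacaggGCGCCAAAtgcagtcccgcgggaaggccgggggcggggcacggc
Usp1, chr5:118702989-118703055, plus strand: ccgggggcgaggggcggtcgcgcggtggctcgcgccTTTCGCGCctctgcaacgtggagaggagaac
Mcm5, chr19:13488564-13488643, plus strand: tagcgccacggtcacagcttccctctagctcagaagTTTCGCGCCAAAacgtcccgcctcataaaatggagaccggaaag
Mcm6, chr13:42404444-42404527, minus strand: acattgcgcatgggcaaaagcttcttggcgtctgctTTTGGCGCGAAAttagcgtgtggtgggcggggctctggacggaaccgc
Gins3, chr19:9434680-9434751, minus strand: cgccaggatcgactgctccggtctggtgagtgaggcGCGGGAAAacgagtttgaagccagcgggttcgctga
Chek1, chr8:44629844-44629907, minus strand: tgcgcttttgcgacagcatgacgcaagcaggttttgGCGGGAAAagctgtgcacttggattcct
Cdk1, chr20:19265124-19265203, plus strand: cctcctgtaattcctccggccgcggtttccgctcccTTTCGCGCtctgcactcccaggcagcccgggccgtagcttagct

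In Mcm5 and Mcm6 the capitals hold overlapping spellings on both strands, TTTCGCGC with TTTGGCGC. In Usp1, Gins3 and Chek1 the site starts 31, 36 and 28 bases before the start of the gene, in Bard1 205, in Pola1 172, in Mcm6 139 and in Cdk1 133. The log2 differences of these 8 genes ran from 1.17 (Chek1, a checkpoint kinase) to 3.05 (Bard1). Other list genes with the site did not separate, such as Mcm2, which stood at 0.82 ± 0.22 and Cdc25a, a phosphatase that activates Cdk2, which stood at 0.04 ± 0.17.

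Mitosis genes gave the most even pattern and no call. All 36 measured members had both E2F1 arrays above both control virus arrays, as did 31.5% of all probe sets. Members separated higher numbered 35, against 3.54% of all probe sets, and the median was 1.91. At the adjusted threshold limma called 0, and 36 had an unadjusted p under 0.05, against 15.5% of all probe sets (in either direction). Espl1, the protease separase, read 57.8 and 288 against 1520 and 1270 (3.23 ± 0.63, adjusted p = 0.0817). Top2a, the topoisomerase that untangles sister chromatids, read 265 and 871 against 3230 and 2710 (2.57 ± 0.55, adjusted p = 0.0973). Mki67, the proliferation antigen, read 185 and 849 against 2490 and 2230, and Bub1b, a spindle checkpoint kinase, read 23.8 and 199 against 544 and 400. In these examples the second control virus array is several times brighter than the first.

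That difference between the 2 control virus arrays held throughout the list. The second array was higher in 36 of 36 mitosis genes, by a median of 1.40 on the log2 scale, against 45.0% of all probe sets and a median of -0.03. It was also higher in 11 of 13 licensing genes (0.81), 22 of 23 polymerase genes (0.44) and 16 of 17 replication chromatin genes (0.54). The 2 E2F1 arrays differed less, with the first higher in 32 of 36 mitosis genes by a median of 0.30. Set against the first control array alone the mitosis median is 2.72, and against the second alone it is 1.17. For licensing genes the same values are 1.71 and 0.94. The part of this difference in the results was not tested. The direction of the mitosis and licensing medians is the same against either control array, as it had to be. Both E2F1 arrays lay above both control virus arrays in 36 of 36 mitosis and 11 of 13 licensing genes.

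**Figure D3:**
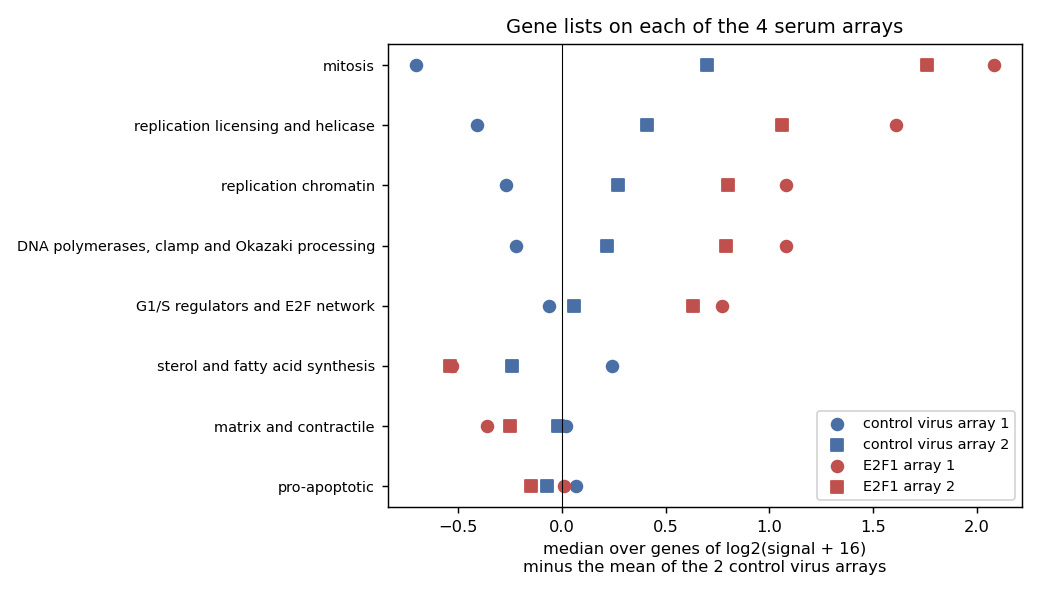
For 8 gene lists (rows), the median over genes of log2(signal + 16) on each serum array relative to the mean of the 2 control virus arrays (x axis), blue for control virus, red for E2F1, circles for the first and squares for the second array. The control arrays lie at -0.70 and 0.70 for mitosis genes, and the E2F1 arrays at 2.08 and 1.76.

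Nucleotide synthesis and chromatin genes lay higher without a call. Of 20 nucleotide synthesis genes 4 were separated higher, against 3.54% of all probe sets (median 0.55). They were Dut, which clears dUTP, at 1.55 ± 0.38 and the thymidylate synthase Tyms at 1.31 ± 0.34. With them were the ribonucleotide reductase subunit Rrm1 at 1.07 ± 0.25 and the thymidine kinase Tk1 at 1.02 ± 0.43. Of 17 replication chromatin genes 8 were separated higher, against 3.54% of all probe sets. All 17 lay above 0, against 56.2% of all probe sets (median 0.94). Asf1b, a histone chaperone, read 58.2 and 244 against 1070 and 1060 (adjusted p = 0.0715), and Chaf1a, of chromatin assembly factor 1, read 33.8 and 150 against 579 and 604 (adjusted p = 0.0733). Of 8 checkpoint genes Cdc25b, a phosphatase that activates Cdk1, was called (253 and 410 against 1490 and 1150, 1.97 ± 0.27, adjusted p = 0.0445). Over these 8 cell cycle and repair lists, 83 of 155 genes were separated higher and 0 lower, against 3.54% and 1.82% of all probe sets. Of the 155, 13 were called higher, against 0.29% of all probe sets. Genes separated higher numbered 396 in all, so most lie outside these lists.

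**Figure D4:**
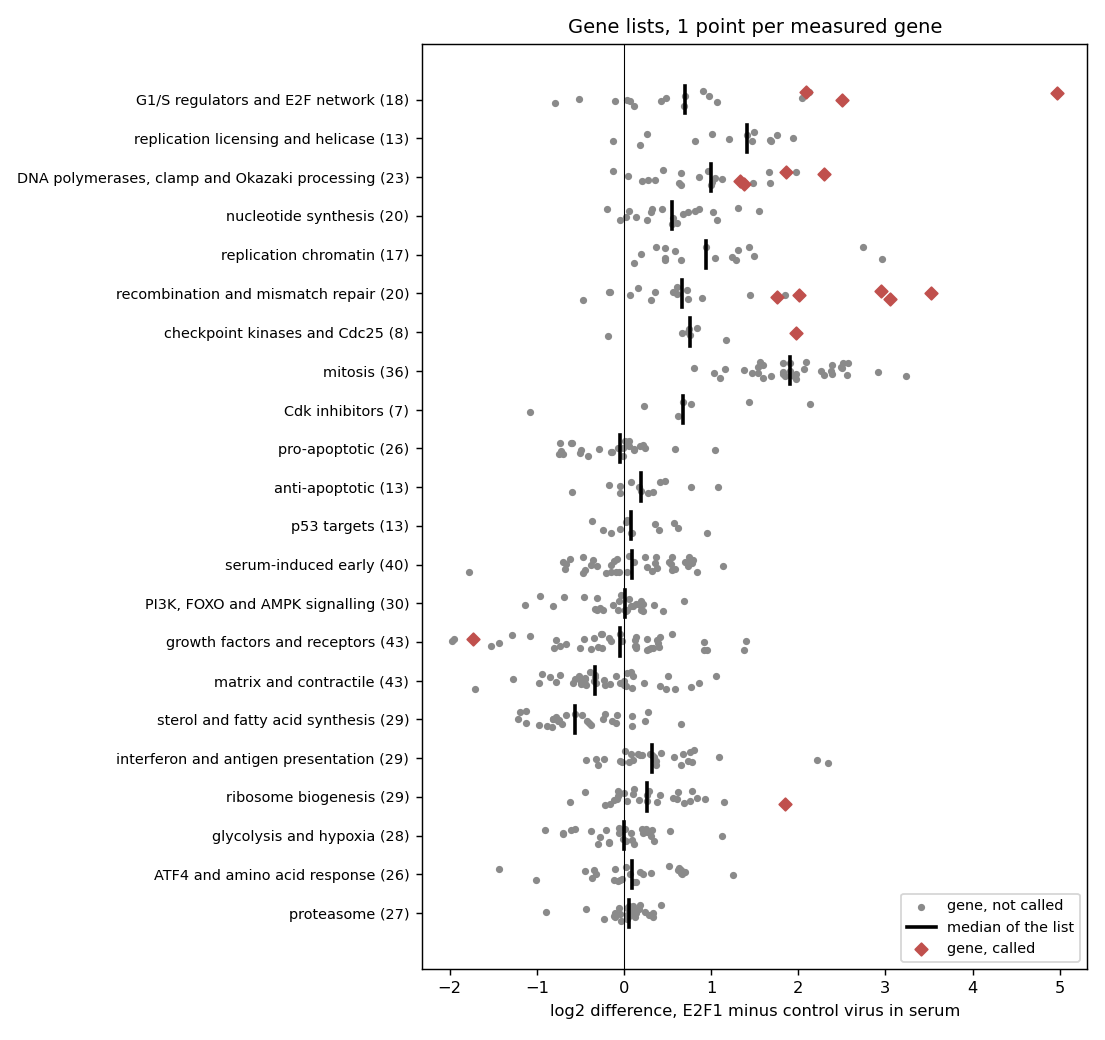
Log2 difference in serum, E2F1 minus control virus (x axis), for each measured gene of 22 lists (rows, number of genes in brackets), with called genes as red diamonds and the list median as a black bar. The mitosis median stands at 1.91 with 0 calls, and the pro-apoptotic median at -0.04.

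Calls outside these lists covered several functions. Lmnb2, a lamin of the nuclear envelope, read 381 and 746 against 3490 and 3230, a 6.13-fold rise (adjusted p = 0.0387). Atad2, a chromatin ATPase, rose 6.79-fold, and Cep128, a centriole protein, rose 5.80-fold. Ggh, the hydrolase that trims folate polyglutamates, was bright and rose 4.83-fold (919 and 1080 against 5820 and 4060). Gclc, the catalytic subunit of glutathione synthesis, rose 3.25-fold by one probe set (1.70 ± 0.19), and its brighter probe set, at 1.55 ± 0.35, did not pass. The amino acid carrier Slc38a1 was called by 2 probe sets (2.46 and 1.44). Among 29 ribosome biogenesis genes only Gar1, of the H/ACA particles that guide pseudouridine, was called (3.62-fold, adjusted p = 0.0435), with a list median of 0.26. Over all probe sets 0.29% were called higher.

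Pro-apoptotic genes gave counts near the shares over all probe sets. Of 26 pro-apoptotic genes 0 were called, where 0.29% of all probe sets were called higher and 0.063% lower. At such shares, 0 calls in a short list says little. In the list 1 was separated higher (3.85%, against 3.54% of all probe sets), and the median was -0.04. Apaf1, the apoptosome scaffold, read 341 and 391 against 303 and 358, so that the groups overlapped (-0.14 ± 0.26). Dapk1, the separated member, was dim (9.81 and 10.6 against 34.4 and 41.8, adjusted p = 0.275). The 13 anti-apoptotic genes had a median of 0.19 and the 13 p53 targets of 0.08, with 0 calls in either. Mdm2, the p53 ligase, read 2810 and 3000 against 5940 and 5290 (0.95 ± 0.31, adjusted p = 0.216). A missed threshold does not show that these genes were unaffected.

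Cdk inhibitors, which restrain the cell cycle, mostly lay higher, with 0 calls. Of 7 measured 6 lay above 0, against 56.2% of all probe sets, and the median was 0.68. Of these 7, 2 were separated higher (Cdkn2c and Cdkn3) and 1 lower (Cdkn2b), against 3.54% and 1.82% of all probe sets. Cdkn3 read 81.5 and 338 against 1000 and 629 (2.13 ± 0.88, limma adjusted p = 0.306). Cdkn2c read 622 and 812 against 1980 and 1930 (1.44 ± 0.31, adjusted p = 0.0955). Cdkn1a read 5470 and 6230 against 8960 and 9010 (0.62 ± 0.23, adjusted p = 0.251), and Cdkn2a read 1510 and 1340 against 2850 and 2080 (adjusted p = 0.477). Cdkn2b lay the other way, at 1210 and 802 against 392 and 534 (-1.08 ± 0.65, adjusted p = 0.467).

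Early serum response genes had a median of 0.09 over 40 measured, with 0 calls. Fos, an immediate early factor, varied between arrays of one group, at 491 and 1560 against 106 and 533, and the groups overlapped (-1.78 ± 0.84, adjusted p = 0.359). Myc, a growth-promoting factor, read 81.0 and 132 against 48.8 and 164 (-0.15 ± 0.93, adjusted p = 0.963), and its sign depends on which serum array is left out. Of 30 PI3K, FOXO and AMPK signalling genes 0 were called by their brightest probe set. Of the 30, 1 was separated lower and 0 higher, against 1.82% and 3.54% of all probe sets, with a median of 0.01. Klf9, a member, was called lower by another probe set, as given below. The separated member, Pik3ip1, read 521 and 401 against 187 and 211 (-1.14 ± 0.36, limma adjusted p = 0.204). Irs2, an adaptor of insulin signalling, read 786 and 474 against 500 and 477 (-0.31 ± 0.38, adjusted p = 0.753).

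The genes that fell were mostly dim with E2F1. Nmu, a neuropeptide gene, read 232 and 244 against 23.8 and 22.2 (-2.70 ± 0.39, adjusted p = 0.0457). Specc1l, a cytoskeletal linker, read 136 and 92.5 against 14.5 and 10.5, and Cdip1, a pro-apoptotic p53 target, read 164 and 109 against 36.5 and 30.9, whereas the other probe sets of Cdip1 stood at -0.22 and -0.14. Cyp1b1, a cytochrome P450, was the bright one: 5420 and 4860 against 1600 and 2150, a 2.75-fold fall (-1.46 ± 0.20, adjusted p = 0.0457). Klf9, a Krueppel-like factor, fell by one probe set (250 and 219 against 26.6 and 46.4). Its brightest probe set read 1720 and 1610 against 965 and 918 without passing (-0.81 ± 0.41, adjusted p = 0.388), and the remaining one stood at 0.11. Cd248, a stromal surface protein, fell (83.6 and 49.7 against 10.8 and 6.16), and its other probe set stood at 0.28.

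Of 43 growth factor and receptor genes 1 was called (Cd248, lower), against 0.063% of all probe sets. In this list 7 were separated lower and 2 higher, against 1.82% and 3.54% of all probe sets. The list as a whole lay near 0, with a median of -0.05, 20 members above 0 and 23 below. The sign of its median differed in 2 of 22 alternatives, many of which cannot move a serum median. Pdgfrb, which binds platelet-derived growth factor, read 2470 and 1680 against 409 and 628 (-1.97 ± 0.58, adjusted p = 0.17), and Tgfb3 read 2820 and 2740 against 822 and 1560. Kitlg, the ligand of Kit, was separated higher (291 and 398 against 1130 and 761). Of 43 matrix and contractile genes 29 lay below 0 (67.4%, against 43.8% of all probe sets) and 2 were separated lower, against 1.82% (median -0.33). These were the protease Mmp11 at -1.71 ± 0.34 (adjusted p = 0.0885) and the myosin light chain Myl9 at -1.27 ± 0.34. In the list of sterol and fatty acid synthesis, 24 of 29 measured genes lay below 0 (82.8%, against the same 43.8%). In it 4 were separated lower, against the same 1.82% (median -0.56). Mvk, of the mevalonate pathway, read 836 and 614 against 245 and 365 (adjusted p = 0.153). In this list the first control array was the higher in 27 of 29 genes, and the median is -0.86 against the first control array and -0.37 against the second. Of 29 interferon and antigen presentation genes 3 were separated higher, against 3.54% of all probe sets. They were the immunoproteasome subunit Psmb9 (38.3 and 78.0 against 418 and 285, adjusted p = 0.0733), the guanylate-binding protein Gbp2 and the peptide transporter Tap1. Medians of the glycolysis (0.00), ATF4 (0.09) and proteasome (0.06) lists lay close to that of all probe sets.

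The genes called in serum were then read on the arrays with LY294002 and in deprivation, which the serum contrast does not use, although the fit shares 1 estimate of spread. On these arrays the 3' minus 5' difference was larger than in serum for most. It ran from 0.19 to 0.90 with LY294002 and from 0.51 to 0.76 in deprivation. Array pairs correlated at 0.963 (control virus) and 0.959 (E2F1) with LY294002, and at 0.984 (E2F1) in deprivation. Of the 46 higher calls, 41 were also called higher with LY294002, where 3.78% of all probe sets were, and 39 in deprivation, where 2.19% were. All 39 were called in both. A small shared estimate of spread favours a call in every medium, so these calls are not independent of the serum calls. The shares over all probe sets, here and for the lower calls below, are therefore not a like comparison. Their median difference was 2.03 with LY294002 and 1.97 in deprivation. Ccne1 stood at 2.50 in serum, 3.77 with LY294002 and 3.05 in deprivation, and Brca2 at 3.52, 3.59 and 3.01. The count in deprivation was 0 when either deprived E2F1 array was left out.

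The 5 probe sets not called higher in either other medium were Pde5a, Pln, Nppb, Mycn and one without a symbol (1386505_at). The last stood the other way with LY294002: it read 44.5 and 41.0 against 126 and 123 in serum, and 98.7 and 82.3 against 44.1 and 38.3 with LY294002, where it was called lower (-0.89 ± 0.16, adjusted p = 0.0255). In deprivation it stood at -0.47 ± 0.20 (adjusted p = 0.229). Nppb, a natriuretic peptide, read 10.1 and 8.13 against 59.6 and 69.6 in serum, and stood at 0.06 with LY294002 and 0.57 in deprivation. Mycn, a relative of Myc, read 17.8 and 16.7 against 55.9 and 55.7 in serum, and stood at -0.08 and 0.08 elsewhere. Pln, an inhibitor of the calcium pump, stood at 0.13 with LY294002 and 1.24 in deprivation, where its signals were 319 with the control virus and 757 and 791 with E2F1. All 4 named genes read under 32 on both control virus arrays in serum. The difference of the E2F1 effect between media was tested directly, and limma called 0 probe sets (0.0%) for LY294002 against serum and 0 for deprivation against serum, with 998 and 1542 at an unadjusted p under 0.05. The smallest adjusted p for LY294002 against serum, 0.23, belonged to the probe set 1386505_at (-2.16 ± 0.23). For Nppb the difference was -1.63 ± 0.24 with LY294002 (adjusted p = 0.255), and for Mycn -1.19 ± 0.22 (adjusted p = 0.469), so that a difference between media was not shown for any of the 3.

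Of the 10 lower calls, 3 were called lower with LY294002 (Klf9, Tspan17 and Cyp1b1), where 1.63% of all probe sets were, and 1 in deprivation (Nmu), where 0.681% were. Their medians were -0.34 and -0.44. Nmu stood at -0.12 with LY294002, where its control virus arrays read 69.8 and 18.7, and at -2.46 in deprivation. Specc1l stood at -0.15 and 0.16, and its E2F1 arrays read 72.3 and 98.6 with LY294002.

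**Figure D5:**
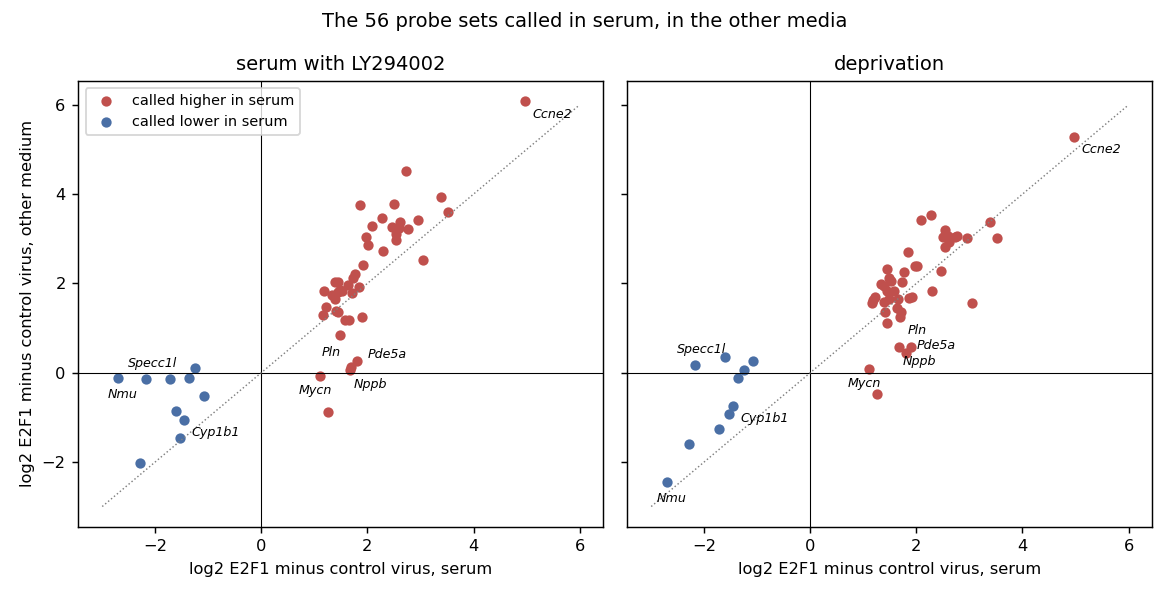
The 56 probe sets called in serum, with the log2 difference (E2F1 minus control virus) in serum on the x axis and that with LY294002 (left) or in deprivation (right) on the y axis, red for called higher and blue for called lower, and a dotted line of equal values. Most red points follow the line, with medians of 2.03 and 1.97, whereas Nppb and Mycn lie near 0 in the left panel.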

How the data were processed

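RNA of REF52 cells (6 µg of total RNA, biotin-labelled, per the labels' protocols) was measured on 11 Affymetrix RAE230A arrays. The values deposited by the authors are linear signal intensities with 1 value for each probe set on an array. MAS5 and RMA are named in the submitters' processing notes, and what each one did is not given in the sources used here, nor are versions. The number of arrays limits the precision.

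The 57 control probe sets were left out and 15866 tested. Of these, 12783 carry 1 symbol, 312 several and 2771 none, and only the first were named (10411 genes). A RefSeq gene table (GRCr8) held 12748 of the 12783. The fit was limma 3.58.1 in R 4.3.3 on log2(signal + 16), with 6 group means over 11 arrays, 5 residual degrees of freedom and Benjamini-Hochberg adjustment per contrast at 0.05. Errors are standard errors of this fit, and the deprived control virus group, with its single array, takes its spread from the other groups.

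The 22 lists (696 entries) and all other choices were made with earlier results of these data known. A list gene is represented by its brightest probe set over all arrays. Named genes are up to 20 called increases and 10 decreases by size, up to 3 called and 3 separated members per list (or the 2 with the smallest p), and 16 set genes, of which Rbl1 and Rrm2 are not the single symbol of any probe set and some are not reported here. Other genes (among them Mki67, Pola1, Ccnd2, Ccnd3, the probe set 1386505_at, Cdk1, Bub1b, Ccnd1, Xrcc5, Nbn, Pold1, Pold3, Pold4, the Orc genes, Mcm2, Cdc25a, Gclc, Slc38a1, Kitlg, Tgfb3, Nppb, Pln and Mycn) were chosen after their values were seen. Steps were tested on simulated data. The alternatives were quantile normalization, median centring, offsets of 1 and 64, leaving out the dimmest 30%, eBayes with a trend and robust, weights per array, a replicate block, fits of 4 and of 8 arrays, averaging the probe sets of a gene, and leaving out each array.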

Additional observations from a re-analysis of the deposited data

Results flagged for a closer look

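Among the named genes and the 56 calls, 5 genes and 3 probe sets without a symbol had arrays that moved one way with E2F1 in serum and the other way in deprivation, without overlap in either medium, and 1 of the probe sets did so with LY294002 as well. None of these differences passed the threshold in limma. The deprived control virus has 1 array, so a lack of overlap there is easily met, and its share over all probe sets is not given here. Cdip1 stood at -1.60 in serum and 0.34 in deprivation, a difference of 1.94 ± 0.38 (adjusted p = 0.268). Cdkn2b stood at -1.08 and 0.23, a difference of 1.31 ± 1.03 (adjusted p = 0.706). Cflar, an inhibitor of caspase 8 that was dim in serum, stood at 1.08 and -0.08, a difference of -1.16 ± 0.57 (adjusted p = 0.553). In deprivation Cflar hardly differed, at 20.7 with the control virus and 18.7 and 19.0 with E2F1. Scd, a fatty acid desaturase, stood at -1.12 and 0.15, a difference of 1.27 ± 0.61 (adjusted p = 0.545). Psmb2, a proteasome subunit, stood at -0.89 and 0.22, a difference of 1.11 ± 0.40 (adjusted p = 0.457). The probe set 1386505_at stood at 1.26 in serum, -0.89 with LY294002 and -0.47 in deprivation, differences of -2.16 ± 0.23 (adjusted p = 0.23) and -1.73 ± 0.26 (adjusted p = 0.218). The probe set 1378944_at stood at -1.25 in serum and 0.05 in deprivation, a difference of 1.31 ± 0.29 (adjusted p = 0.322), and 1389460_at at -1.09 and 0.26, a difference of 1.35 ± 0.25 (adjusted p = 0.268).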

How the results depend on the processing

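The count of 56 calls in serum was 57 after quantile normalization and 63 with an offset of 64, of which 52 and 46 were among the 56. It was 37 after median centring, 5 with an offset of 1, 157 without the dimmest 30% of probe sets, 101 with trend and robust settings and 522 with array weights, of which 34, 5, 42, 49 and 56 were among the 56. It was 3 in a fit of the 8 arrays given serum, 0 in a fit of the 4 serum arrays and 0 to 71 without each array in turn. The cause was not tested. Array numbers gave little sign of pairing (correlations of deviations from -0.022 to 0.065 over group pairs), except between the 2 groups with LY294002 (0.301). With a replicate block 3 were called. Of the 46 higher calls, the 41 called with LY294002 became 25 with array weights, and the 39 in deprivation became 0 to 37 without each array in turn. The 0 differences between media became 0 to 1 without each array, in either comparison. Separated probe sets, 850 in all, numbered 1451 with an offset of 1, 399 with an offset of 64, 8717 with no minimum difference and 945 to 1389 without each serum array. None of the 56 calls changed sign in the alternatives run, but many of these could not turn a sign. The groups of the 56 do not overlap, so leaving out 1 serum array keeps the direction. Leaving out an array of another medium does not change a difference in serum at all. Of the 16 set genes, Myc, at -0.15, ran from -0.89 to 0.58 without each array, turning to 0.15 without the second control virus serum array and 0.58 without the first E2F1 serum array, and Irs2, at -0.31, turned to 0.04 without the first control virus serum array, its range being -0.67 to 0.04. Medians of the 8 cell cycle and repair lists kept their sign in all 22 alternatives, with the mitosis median from 1.17 to 2.72 and the sterol median from -0.86 to -0.37. The medians near 0 did not: that of PI3K, FOXO and AMPK genes had another sign in 8 of 22 and that of glycolysis genes in 6 of 22. Many of the 22 alternatives cannot move a serum median, among them leaving out an array of another medium and the trend and robust settings. Probe sets under 32 (17.6% to 19.5% on the 4 arrays) have differences set in part by the offset.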

Other observations

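Several genes outside the lists and the calls were separated in serum and bright enough for a fold to be read, chosen here after their values were seen, and none passed the test. Prl8a9, of the prolactin family, read 33.8 and 59.7 against 614 and 327 (2.92 ± 0.54, limma adjusted p = 0.0807), and stood at 0.57 with LY294002 and 3.37 in deprivation. Pclaf, a Pcna-binding protein, read 223 and 957 against 2570 and 1910 (adjusted p = 0.144). Gclm, the modifier subunit that partners Gclc in glutathione synthesis, read 162 and 181 against 643 and 493 (1.63 ± 0.48, adjusted p = 0.17). Dek, a chromatin protein, read 816 and 1300 against 3760 and 2870 (adjusted p = 0.063).

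On the lower side, Stard10, a lipid-binding protein, read 734 and 490 against 37.6 and 186 (-2.56 ± 1.11, adjusted p = 0.32; its other probe set stood at -0.96), and Synpo, an actin-binding protein, read 1820 and 1660 against 253 and 470 (-2.28 ± 0.58, adjusted p = 0.128; its other probe set stood at -0.90). Ogn, osteoglycin, read 2360 and 1470 against 262 and 516 (-2.29 ± 1.20, adjusted p = 0.408), and its 3 other probe sets stood at -1.85, -1.92 and -2.59. Serpinf1 read 2430 and 1650 against 448 and 739, Emilin1 2510 and 2350 against 527 and 1080, and Plat, tissue plasminogen activator, 1120 and 797 against 228 and 303 (-1.79 ± 0.36, adjusted p = 0.091). H19, a noncoding RNA, read 1340 and 1200 against 285 and 455 (adjusted p = 0.348).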
